A study of Mus musculus with 15 samples.

Results

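TGF-beta and BMP signalling was examined in dysplastic lung tissue through 47 genes: 3 TGF-beta ligands, 10 BMP, GDF and activin ligands, the protease gene Bmp1, 11 receptors and co-receptors, 8 Smads, 6 secreted antagonists and follistatin-related genes, 4 Id genes and 4 latent TGF-beta binding proteins. The genes were taken by name, with earlier results of these data known. Each was read through 1 Affymetrix probe set that is annotated to that gene alone, under its current or an older symbol, and that had the highest mean signal over the 15 arrays. Of the 47 genes 45 had such a probe set, out of 18161 genes with one on the array, and none was annotated to Bmp3 or Gdf15 alone. A mean signal above 100 over all arrays was required for testing, which 39 of the 45 passed. The mean signal of the other 6 was 71.7 for Bmp7, 44.5 for Bmpr1b, 23.0 for Grem1, 22.9 for Smad9, 13.7 for Inhba and 5.24 for Nog, and these genes were not tested.

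The tissue came from SP-C/c-raf mice, in which the transgene is driven by the promoter of surfactant protein C, a gene of alveolar type 2 cells, on a C57BL/6 background of at least 5 generations. Dysplasia stands for 5 samples of dysplastic foci and transgenic for 5 samples of lung that carried the transgene but was not altered, both from transgenic mice of 5 to 7 months. Non-transgenic stands for 5 samples of lung from littermates of 7 to 10 months without the transgene. All 15 were cut from frozen sections by laser microdissection, cells taken from 1 animal were pooled, and each sample was hybridised to 1 array.

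TGF-beta, activins and BMPs are secreted dimers that bring together type I and type II receptor kinases. TGF-beta and activin receptors pass the signal mainly through Smad2 and Smad3, BMP receptors through Smad1, Smad5 and Smad9, and both use Smad4 as the shared partner in the nucleus. Latent TGF-beta binding proteins hold TGF-beta in the matrix, antagonists such as follistatin and noggin catch ligands outside the cell, and Smad6, Smad7 and the Id genes are induced by the pathway itself. In the lung the pathway is known for branching of the airways, for fibrosis and, through BMPR2, for the health of the pulmonary vessels.

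Array means of the signal lay between 692 and 775, and 44.1% to 49.9% of the probe sets of an array read above 100. The ratio of the 5' to the 3' signal of actin, which falls as RNA degrades, was 12.5% to 75.2%. Its median was 57.1% over the dysplasia arrays, against 38.9% over the transgenic and 31.0% over the non-transgenic ones. Dysplasia 4 carried Xist at 9674, as in a female, together with Y-linked transcripts, and the labels of transgenic 2 conflict, since its title gives unaltered transgenic tissue and another entry gives tumor. The numbers of the 39 tested genes called higher and lower in dysplasia are given with and without these 2 arrays. Other counts are given with them only. Per the study's methods each transgenic mouse with dysplasia gave both foci and unaltered tissue. Which arrays share a mouse is not stated, but each of these 10 arrays ran best with the array of its own number in the other group. Values with the array number as a block are therefore given where they change a count or a call. Deviations from the group means had a mean r of 0.612 between same-numbered dysplasia and transgenic arrays. Between groups from different mice this mean was 0.452 (transgenic and non-transgenic) and 0.405 (dysplasia and non-transgenic). What the array number stands for was not tested. The 2 arrays of number 4 do not match in sex. Transgenic 4 had Xist at 85.0 and the Y-linked Eif2s3y at 1567, as in a male. Between dysplasia 4 and transgenic 4, deviations from the group means had r = 0.219, the lowest of any number. P-values measure the spread between these samples.

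Of the 39 tested genes, 10 were higher and 16 lower in dysplasia than in transgenic tissue, and 13 did not pass the test (limma on log2(signal + 50), adjusted p under 0.05). This is 66.7% called, where 33.2% of all 21658 probe sets tested were called, 15.3% as higher and 17.9% as lower. Because the genes were chosen with earlier results of these data known, such shares describe the list and are not an independent test of it. The highest dysplasia array was below the lowest transgenic array, or the reverse, at 21 of the 39 genes, or 53.8%, and at 25.3% of all probe sets. The median log2 change of the 39 genes was -0.10, against -0.01 over all probe sets. With the array number as a block 12 genes were higher and 17 lower, or 74.4% called, where the block called 49.2% of all probe sets. Without dysplasia 4 and transgenic 2 the counts were 9 higher and 15 lower, where 2812 of all 21658 probe sets were higher and 3518 lower. Compared with non-transgenic tissue, 12 genes were higher and 18 lower in dysplasia, and 9 did not pass. The share called was 76.9% of the 39 genes and 44.0% of all probe sets, with 20.7% of the probe sets called higher and 23.3% lower. Here too 21 of the 39 genes had groups apart from each other, against 33.3% of all probe sets, and the median log2 change was -0.18 against -0.03. With Xist as a covariate 9 genes were higher and 17 lower, where 3995 of all probe sets were higher and 4357 lower. Leaving out dysplasia 4 gave 9 higher and 19 lower, where 4171 of all probe sets were higher and 4773 lower. With the actin ratio as a covariate 11 genes were higher and 16 lower than in transgenic tissue, against 3584 and 4164 of all probe sets. Relative to non-transgenic tissue 12 genes were higher and 18 lower with this covariate, against 5117 and 5943 of all probe sets. In limma's fit 27 genes had an unadjusted p under 0.05 in the first comparison and 31 in the second, against 41.7% and 50.7% of all probe sets. A call together with a log2 change of at least 1 in size and no overlap was found at 10 genes relative to transgenic tissue and at 13 relative to non-transgenic tissue, against 8.08% and 11.6% of all probe sets. These 13 genes, which include the 10, are given array by array in what follows. Both comparisons use the same 5 dysplasia arrays. Of 18 genes with several tested probe sets, 14 had the same direction in all of them in each dysplasia comparison, and none was called in opposite directions.

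**Figure D1:**
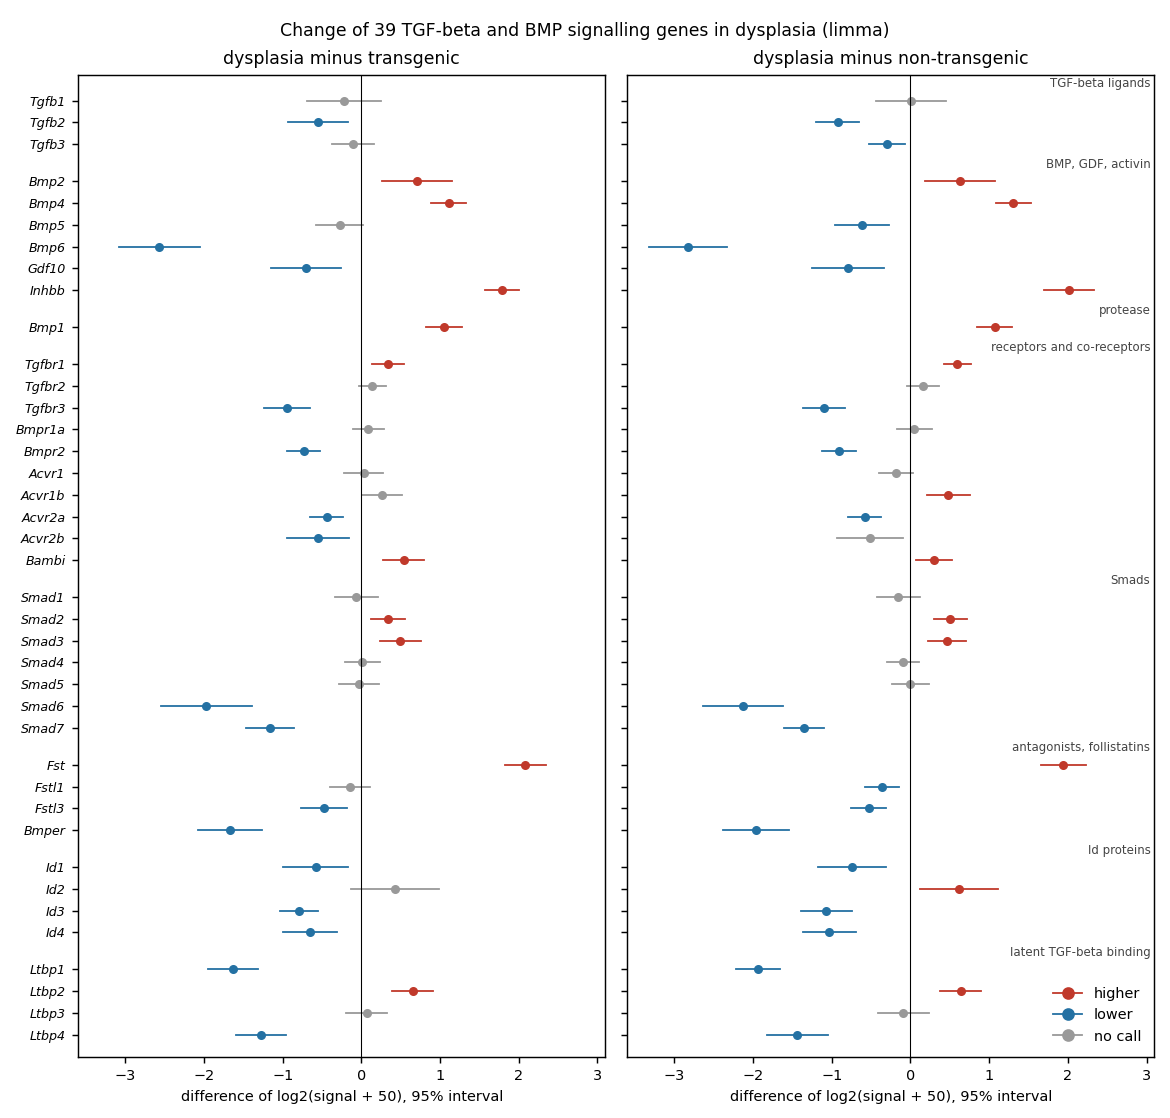
Difference of log2(signal + 50) in dysplasia minus transgenic (left) and dysplasia minus non-transgenic tissue (right) for the 39 tested genes, grouped by role from ligands at the top to latent TGF-beta binding proteins at the bottom. Points are estimates of limma with their 95% interval, with called rises in red, called falls in blue and the rest in grey; Fst lies at 2.08 and Bmp6 at -2.57 in the left panel.

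Among the ligands the largest difference was that of Bmp6, a BMP known for the control of hepcidin and iron, which was lower in dysplasia. It had a signal of 581, 331, 385, 987 and 544 on the dysplasia arrays 1 to 5, against 3573, 2871, 3151, 3505 and 3886 on the transgenic arrays and 4051, 4397, 4078, 3894 and 3931 on the non-transgenic arrays. Every dysplasia array lay far below every other array, and dysplasia 4 was the highest of the 5. The mean signal was 6.01-fold lower than in transgenic tissue (log2 change -2.57, standard error 0.23, adjusted p = 1.53e-05) and 7.19-fold lower than in non-transgenic tissue (log2 change -2.83, standard error 0.23, adjusted p = 2.69e-06). In bulk tissue of this kind, fewer cells of a type and less RNA per cell cannot be told apart.

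Inhbb, which encodes the beta B subunit of activin B and inhibin B, went the other way. It had a signal of 2940.1, 2392, 2821, 2351 and 2765 on the dysplasia arrays 1 to 5, against 695, 832, 753, 684 and 701 on the transgenic arrays and 674, 809.7, 483, 693 and 484 on the non-transgenic arrays. All dysplasia arrays were above all others, 3.62-fold over transgenic tissue (log2 change 1.79, standard error 0.10, adjusted p = 8.37e-07) and 4.22-fold over non-transgenic tissue (log2 change 2.01, standard error 0.15, adjusted p = 1.54e-06). A second, dimmer probe set of Inhbb rose by 0.71 and 0.68 on the log2 scale in these comparisons. The gene of the beta A subunit, Inhba, was not above 48.1 on any array.

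Bmp4, a ligand that patterns the distal lung bud in the embryo, rose as well. It had a signal of 8141, 5997, 7289, 6548 and 6642 on the dysplasia arrays 1 to 5, against 3446, 2995, 3285, 3213 and 2892 on the transgenic arrays and 2533, 2599, 2774, 3116 and 2803 on the non-transgenic arrays. The 5 dysplasia arrays were again above the 10 others, with a 2.19-fold difference from transgenic tissue (log2 change 1.11, standard error 0.10, adjusted p = 1.56e-05) and a 2.5-fold difference from non-transgenic tissue (log2 change 1.30, standard error 0.10, adjusted p = 2.30e-06). Its close relative Bmp2 averaged 564 ± 166 in dysplasia, against 325 ± 89.5 in transgenic and 344 ± 96.3 in non-transgenic tissue (SD, n = 5 each). Bmp2 rose by 0.71 over transgenic (adjusted p = 0.0194) and by 0.63 over non-transgenic tissue on the log2 scale (adjusted p = 0.0249), but some arrays of the groups overlapped, and the second call was lost on leaving out any single array among dysplasia 4 and non-transgenic 3, 4 and 5 (adjusted p between 0.0532 and 0.0618). Bmp5 averaged 1454 ± 202 in dysplasia, against 1775 ± 274 in transgenic and 2284 ± 474 in non-transgenic tissue (SD, n = 5 each). Its difference from transgenic tissue did not pass (log2 change -0.27, adjusted p = 0.154), although it did with the array number as a block (adjusted p = 0.019) and on leaving out transgenic 1 (adjusted p = 0.0278). Compared with non-transgenic tissue Bmp5 fell by 0.62 on the log2 scale (adjusted p = 0.00712). Gdf10, a TGF-beta family ligand also known as BMP3b, was 1.86-fold and 2.01-fold lower in dysplasia than in transgenic and non-transgenic tissue, with adjusted p of 0.0185 and 0.0087 and overlapping groups. Its highest dysplasia signal, 198, was that of dysplasia 4.

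The TGF-beta ligands themselves moved less. Tgfb1 averaged 975 ± 279 in dysplasia, against 1110.0 ± 191 in transgenic and 934 ± 86.8 in non-transgenic tissue (SD, n = 5 each), and neither dysplasia comparison passed (log2 change -0.22 with a 95% interval of -0.70 to 0.25, and 0.01 with -0.44 to 0.45). Dysplasia 4 had the lowest Tgfb1 signal of all arrays, 494. Tgfb2 averaged 449 ± 45.7 in dysplasia, against 699 ± 192 in transgenic and 905 ± 150.1 in non-transgenic tissue (SD, n = 5 each). It was lower in dysplasia than in non-transgenic tissue with no overlap (log2 change -0.93, standard error 0.12, adjusted p = 9.84e-05). The difference from transgenic tissue also passed (log2 change -0.55, adjusted p = 0.0298), but not on leaving out any single array among dysplasia 1 and 2 and transgenic 3, 4 and 5 (adjusted p between 0.0511 and 0.0752). Tgfb3 had a log2 change of -0.10 from transgenic tissue (adjusted p = 0.575) and fell by 0.29 on the log2 scale relative to non-transgenic tissue (adjusted p = 0.0397). The second call was lost on leaving out any single array among dysplasia 1, 2 and 5 and non-transgenic 1, 2, 3, 4 and 5 (adjusted p between 0.0553 and 0.0848).

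Bmp1 is, despite its name, a metalloprotease that trims procollagen and cleaves the BMP antagonist chordin and LTBP1. It had a signal of 1331, 1414, 1794, 1439 and 1683 on the dysplasia arrays 1 to 5, against 619, 738, 737, 712 and 736 on the transgenic arrays and 706, 622, 744, 684 and 751 on the non-transgenic arrays. No dysplasia array came near the level of the other tissues, and the rise was 2.16-fold over transgenic (log2 change 1.05, standard error 0.10, adjusted p = 2.45e-05) and 2.18-fold over non-transgenic tissue (log2 change 1.07, standard error 0.10, adjusted p = 9.41e-06).

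Of the 10 tested receptors and co-receptors, 2 were higher and 4 lower in dysplasia than in transgenic tissue, and 3 were higher and 3 lower than in non-transgenic tissue. This is 60% called in each comparison, against 33.2% and 44.0% of all probe sets. By direction, 20% were higher and 40% lower in the first, against 15.3% and 17.9% of all probe sets. In the second 30% were higher and 30% lower, against 20.7% and 23.3%. Tgfbr3, or betaglycan, the co-receptor that presents TGF-beta2 and binds inhibin, had a signal of 2504, 2203, 1983, 3075 and 2446 on the dysplasia arrays 1 to 5, against 5265, 4137, 4222, 5584 and 4545 on the transgenic arrays and 5854, 5199.9, 5512, 5061 and 4563 on the non-transgenic arrays. The groups were separate, with the dysplasia arrays low and dysplasia 4 nearest to the others. Its mean was 1.95-fold lower than in transgenic tissue (log2 change -0.95, standard error 0.13, adjusted p = 0.000238) and 2.14-fold lower than in non-transgenic tissue (log2 change -1.10, standard error 0.12, adjusted p = 2.76e-05).

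The type II receptors of BMPs and activins were also lower. Bmpr2, the BMP type II receptor that is mutated in heritable pulmonary arterial hypertension, averaged 8639.6 ± 456 in dysplasia, against 14455 ± 1491 in transgenic and 16359 ± 1967 in non-transgenic tissue (SD, n = 5 each). Its dysplasia arrays, from 8052 to 9314, lay below all others, and 2 further probe sets of the gene fell by 0.89 and 0.94 on the log2 scale relative to transgenic tissue, beside -0.73 for the brightest one (adjusted p = 0.000121). Acvr2a, a type II receptor for activins and BMPs, was 1.37-fold lower than in transgenic tissue (adjusted p = 0.00346) and 1.51-fold lower than in non-transgenic tissue (adjusted p = 0.000473), with no overlap in either comparison. Its other tested probe set passed relative to non-transgenic tissue only (log2 change -0.17 and -0.37, adjusted p = 0.344 and 0.0257). Acvr2b, its paralogue, had a log2 change of -0.55 from transgenic tissue (adjusted p = 0.0335) and of -0.51 from non-transgenic tissue (adjusted p = 0.0503). The first call was lost on leaving out any single array among dysplasia 1 and transgenic 1, 3, 4 and 5 (adjusted p between 0.0584 and 0.0714). The second difference passed on leaving out any single array among dysplasia 2 and 4 and non-transgenic 1 (adjusted p between 0.0385 and 0.0416). A second probe set of Acvr2b had a log2 change of -0.04 from transgenic tissue and no call.

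The type I receptors Tgfbr1, Acvr1b, Bmpr1a and Acvr1 and the TGF-beta type II receptor did not follow. Another type I receptor, Acvrl1, was lower in dysplasia and is described below with the rest of the pathway. Tgfbr1, the TGF-beta type I receptor, was 1.27-fold higher in dysplasia than in transgenic tissue (adjusted p = 0.0143) and 1.52-fold higher than in non-transgenic tissue (adjusted p = 9.87e-05). Its dysplasia signals of 4281 to 5093 just touched the transgenic range and cleared the non-transgenic one. Acvr1b, the activin type I receptor, was 1.4-fold higher than in non-transgenic tissue (adjusted p = 0.00892). Its difference from transgenic tissue (log2 change 0.26, adjusted p = 0.107) passed in 3 of 24 other settings, with the array number as a block (adjusted p = 0.0176), with the actin ratio as a covariate (adjusted p = 0.0142) and on leaving out dysplasia 2 (adjusted p = 0.0488). Tgfbr2, the TGF-beta type II receptor, and the BMP type I receptors Bmpr1a and Acvr1 passed in neither comparison, with log2 changes of 0.14, 0.09 and 0.03 from transgenic tissue, although Tgfbr2 arrays of dysplasia and transgenic tissue did not overlap and 1 of the 5 tested Bmpr1a probe sets rose by 0.37 (adjusted p = 0.00935). Bambi, a receptor-like decoy without a kinase domain, was 1.48-fold higher than in transgenic tissue with no overlap (adjusted p = 0.00496). It was 1.25-fold higher than in non-transgenic tissue (adjusted p = 0.034), a call that was lost on leaving out any single array among dysplasia 1, 4 and 5 and non-transgenic 1, 4 and 5 (adjusted p between 0.057 and 0.0791).

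Within the Smads the inhibitory members fell and the signal carriers changed less. Smad6, which blocks mainly BMP receptors, had a signal of 1622, 871, 942, 2326 and 1267 on the dysplasia arrays 1 to 5, against 6569, 3452, 5835, 5837 and 5429.8 on the transgenic arrays and 6587, 6390.0, 6014, 5289 and 5392 on the non-transgenic arrays. The dysplasia group was low and wide, with dysplasia 4 on top, and the lowest array of the other groups, transgenic 2, was still above it. The mean was 3.86-fold lower than in transgenic (log2 change -1.97, standard error 0.26, adjusted p = 0.000167) and 4.22-fold lower than in non-transgenic tissue (log2 change -2.12, standard error 0.23, adjusted p = 2.36e-05).

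Smad7, which blocks TGF-beta and BMP receptors alike, had a signal of 928, 859.8, 876, 1205 and 813 on the dysplasia arrays 1 to 5, against 2699, 1817, 2381, 1921 and 2005 on the transgenic arrays and 2723, 2599.9, 2543, 2256 and 2171 on the non-transgenic arrays. The dysplasia arrays were below all others here as well, 2.31-fold relative to transgenic (log2 change -1.16, standard error 0.14, adjusted p = 7.63e-05) and 2.63-fold relative to non-transgenic tissue (log2 change -1.35, standard error 0.12, adjusted p = 4.60e-06). A second probe set of Smad7 fell by 1.46 and by 1.49 on the log2 scale. Smad2 and Smad3, the carriers of the TGF-beta and activin signal, were 1.28-fold and 1.42-fold higher than in transgenic tissue (adjusted p = 0.0217 and 0.00755), and 1.45-fold and 1.39-fold higher than in non-transgenic tissue (adjusted p = 0.00129 and 0.0056). The call of Smad2 in the first comparison was lost on leaving out any single array among dysplasia 4 and transgenic 5 (adjusted p between 0.052 and 0.0527). The other tested probe set of Smad2 had log2 changes of 0.02 and 0.10 and no call (adjusted p = 0.909 and 0.497), and the mean over both did not pass relative to transgenic tissue (adjusted p = 0.117). The brightest probe sets of Smad1, Smad4 and Smad5 did not pass in either comparison. Their log2 changes from transgenic tissue were -0.06, 0.01 and -0.04, with 95% intervals of -0.34 to 0.21, -0.21 to 0.24 and -0.29 to 0.22. Among their other probe sets, one of Smad1 fell by 0.33 on the log2 scale relative to non-transgenic tissue (adjusted p = 0.00735) and a dim one of Smad5 rose by 0.42 relative to transgenic tissue (adjusted p = 0.0391).

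The Id genes, which encode helix-loop-helix proteins without a DNA-binding region and are textbook targets of BMP signalling, split. Id1, Id3 and Id4 were lower in dysplasia, and Id2 was not. Id3 had a signal of 3002, 2218, 2425, 2892 and 2831 on the dysplasia arrays 1 to 5, against 5029.9, 3930.2, 4816, 4825 and 4649 on the transgenic arrays and 7377, 4668, 6602, 5232 and 4737 on the non-transgenic arrays. The groups did not overlap, and the mean was 1.74-fold lower than in transgenic (log2 change -0.79, standard error 0.11, adjusted p = 0.000242) and 2.14-fold lower than in non-transgenic tissue (log2 change -1.07, standard error 0.15, adjusted p = 0.000138).

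Id4 had a signal of 217, 135, 117, 228 and 133 on the dysplasia arrays 1 to 5, against 257, 291, 265, 329.7 and 272 on the transgenic arrays and 351, 405, 350.3, 422 and 382 on the non-transgenic arrays. The 3 groups formed 3 steps without overlap, dysplasia lowest and non-transgenic highest. Relative to transgenic tissue Id4 was 1.7-fold lower (log2 change -0.65, standard error 0.15, adjusted p = 0.00679) and relative to non-transgenic tissue 2.3-fold lower (log2 change -1.03, standard error 0.15, adjusted p = 0.00022). Id1 averaged 1902 ± 301 in dysplasia, against 2934 ± 916 in transgenic and 3288 ± 922 in non-transgenic tissue (SD, n = 5 each). It was 1.54-fold lower than in transgenic (adjusted p = 0.0333) and 1.73-fold lower than in non-transgenic tissue (adjusted p = 0.0102) with overlapping arrays, and the first call was lost on leaving out any single array among dysplasia 2, 3 and 4 and transgenic 3 and 4 (adjusted p between 0.0616 and 0.0745). Id2 averaged 5738 ± 1166 in dysplasia, against 4446 ± 1583 in transgenic and 3821 ± 1172 in non-transgenic tissue (SD, n = 5 each). Its difference from transgenic tissue did not pass (log2 change 0.42, 95% interval -0.14 to 0.98, adjusted p = 0.24) but did with the array number as a block (adjusted p = 0.0193), and 2 further probe sets of Id2 rose by 0.93 and 0.78 on the log2 scale (adjusted p = 0.00306 and 0.0322). Id2 was 1.5-fold higher than in non-transgenic tissue (adjusted p = 0.0451), a call that was lost on leaving out any single array among dysplasia 2, 3, 4 and 5 and non-transgenic 1, 2, 3 and 5 (adjusted p between 0.0527 and 0.102). The 2 further probe sets rose by 1.65 and 0.79 on the log2 scale in this comparison (adjusted p = 1.55e-05 and 0.00577).

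Promoters of Smad6, Id3, Id4 and Id2 are shown because these genes are known to answer to Smads and because Id2 did not move with the other 3. The sequences are those of RefSeq on GRCm38.p6, from 200 bases before to 10 bases after the start that the promoter table lists, each read 5′ to 3′ on the strand of the gene, and a promoter was found in that table for 34 of the 47 genes. Capitals mark 3 motifs on either strand: the palindromic Smad box GTCTAGAC, the GC-rich site GGCGCC of BMP Smads, also a palindrome, and the element CAGAC of Smad3 and Smad4, whose reverse complement is GTCTG. None of these motifs contains another.
Smad6, chr9:64022050-64022259, minus strand: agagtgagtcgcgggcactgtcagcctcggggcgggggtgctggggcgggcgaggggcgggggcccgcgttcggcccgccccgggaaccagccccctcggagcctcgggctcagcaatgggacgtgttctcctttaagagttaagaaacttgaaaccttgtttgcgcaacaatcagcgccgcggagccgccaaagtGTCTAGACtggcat
Id3, chr4:136143622-136143831, plus strand: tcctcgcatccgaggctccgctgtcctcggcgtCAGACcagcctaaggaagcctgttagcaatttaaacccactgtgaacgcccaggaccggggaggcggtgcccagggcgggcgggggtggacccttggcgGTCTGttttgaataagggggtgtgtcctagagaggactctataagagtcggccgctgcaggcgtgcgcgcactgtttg
Id4, chr13:48260916-48261125, plus strand: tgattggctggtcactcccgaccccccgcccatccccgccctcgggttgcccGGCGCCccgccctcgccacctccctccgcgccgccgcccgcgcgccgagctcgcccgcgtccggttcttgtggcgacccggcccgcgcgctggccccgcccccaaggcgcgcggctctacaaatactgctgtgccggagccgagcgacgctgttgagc
Id2, chr12:25096083-25096292, minus strand: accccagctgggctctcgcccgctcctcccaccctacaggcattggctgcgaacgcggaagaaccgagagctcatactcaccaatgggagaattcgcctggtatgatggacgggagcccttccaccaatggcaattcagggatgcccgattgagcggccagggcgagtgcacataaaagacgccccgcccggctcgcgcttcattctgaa

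The window of Smad6, the gene that fell most among the Smads, held 1 Smad box, across the listed start. For Smad6 this start lies 26 bases inside the outer bound of the gene in the RefSeq gene table, so that by that bound the box is within the gene. For Id3, Id4 and Id2 the start and the bound are the same. A box of this kind was found in 38 of 32851 promoter windows of the same length, or 0.116%. Id3 held 2 copies of CAGAC, a motif of 37.5% of the windows, and Id4 held 1 GGCGCC, found in 8.82%. The window of Id2 held none of the 3 motifs. Among other genes called lower than in transgenic tissue, Ltbp1 and Fstl3 held 2 copies of CAGAC each, and Bmp6, Gdf10 and Acvr2a 1 each. Ltbp4 and Bmpr2 held 1 GGCGCC each, and Bmper, Tgfb2 and Acvr2b held no motif. Among genes called higher than in transgenic tissue, Bmp4, Inhbb, Tgfbr1 and Smad3 held none and Ltbp2 held 1 CAGAC. Ltbp3, without a call, held 2 copies of CAGAC. Id1, Smad7 and Tgfbr3, which fell, and Bmp1, Bmp2, Bambi, Smad2 and Fst, which rose, had no promoter in the promoter table. Whether these motifs go with the direction of change was not tested. A match describes the letters only, and binding of Smads was not measured here.

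Among the secreted antagonists Fst, follistatin, which binds activins tightly, had the largest rise of all 39 genes relative to transgenic tissue. It had a signal of 816, 1021, 952, 702 and 958 on the dysplasia arrays 1 to 5, against 173, 158, 190.1, 140.1 and 193 on the transgenic arrays and 259, 186, 176, 174 and 175 on the non-transgenic arrays. The dysplasia arrays stood well apart, 5.21-fold above transgenic (log2 change 2.08, standard error 0.12, adjusted p = 1.03e-06) and 4.58-fold above non-transgenic tissue (log2 change 1.94, standard error 0.13, adjusted p = 8.61e-07). A second probe set of Fst rose by 1.40 and by 1.59 on the log2 scale. Fst and Inhbb, the antagonist and an activin subunit it binds as part of the dimer, were thus both above every other array on all 5 dysplasia arrays.

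Bmper, an extracellular BMP-binding protein first known from endothelial cells, moved in the opposite direction. It had a signal of 426, 266, 332, 517 and 338 on the dysplasia arrays 1 to 5, against 983, 1164, 1153, 1562 and 1657 on the transgenic arrays and 1210.4, 1956, 1326, 1456 and 2098 on the non-transgenic arrays. Its dysplasia arrays were all below the rest, 3.47-fold relative to transgenic (log2 change -1.67, standard error 0.18, adjusted p = 4.52e-05) and 4.28-fold relative to non-transgenic tissue (log2 change -1.96, standard error 0.19, adjusted p = 1.07e-05). Fstl3, a follistatin-like binder of activin and myostatin, was 1.47-fold and 1.52-fold lower, with no overlap in either comparison (adjusted p = 0.0183 and 0.00134). Fstl1, a secreted glycoprotein needed for lung development in mice, had a log2 change of -0.15 from transgenic tissue (adjusted p = 0.392) and fell by 0.36 relative to non-transgenic tissue (adjusted p = 0.0125). That call was lost without array number 5 of each group (adjusted p = 0.0637). A second Fstl1 probe set of similar brightness had log2 changes of 0.17 and -0.12 and no call.

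The latent TGF-beta binding proteins, which tether latent TGF-beta to the matrix (Ltbp2 binds fibrillin but not TGF-beta), went in both directions. Ltbp1 had a signal of 266, 351, 318, 429 and 271 on the dysplasia arrays 1 to 5, against 897, 1207, 1333, 1166 and 961 on the transgenic arrays and 1248, 1608, 1377, 1263 and 1418 on the non-transgenic arrays. Each dysplasia array was below each of the others, 3.4-fold relative to transgenic (log2 change -1.63, standard error 0.15, adjusted p = 1.38e-05) and 4.23-fold relative to non-transgenic tissue (log2 change -1.94, standard error 0.13, adjusted p = 8.61e-07).

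Ltbp4, which also supports elastic fibre assembly in the lung, had a signal of 875, 723, 712, 947 and 618 on the dysplasia arrays 1 to 5, against 2231, 1914, 2166, 1976 and 1451 on the transgenic arrays and 2428, 2500.4, 2681, 2003 and 1437 on the non-transgenic arrays. The dysplasia group was again separate and low, 2.51-fold relative to transgenic (log2 change -1.28, standard error 0.14, adjusted p = 5.63e-05) and 2.85-fold relative to non-transgenic tissue (log2 change -1.44, standard error 0.17, adjusted p = 5.45e-05). Ltbp2 was 1.59-fold and 1.57-fold higher in dysplasia, without overlap in either comparison (adjusted p = 0.00142 and 0.00114). Ltbp3 averaged 5249.6 ± 835 in dysplasia, against 4978 ± 465 in transgenic and 5602 ± 910.2 in non-transgenic tissue (SD, n = 5 each) and passed in neither (adjusted p = 0.725 and 0.667).

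**Figure D2:**
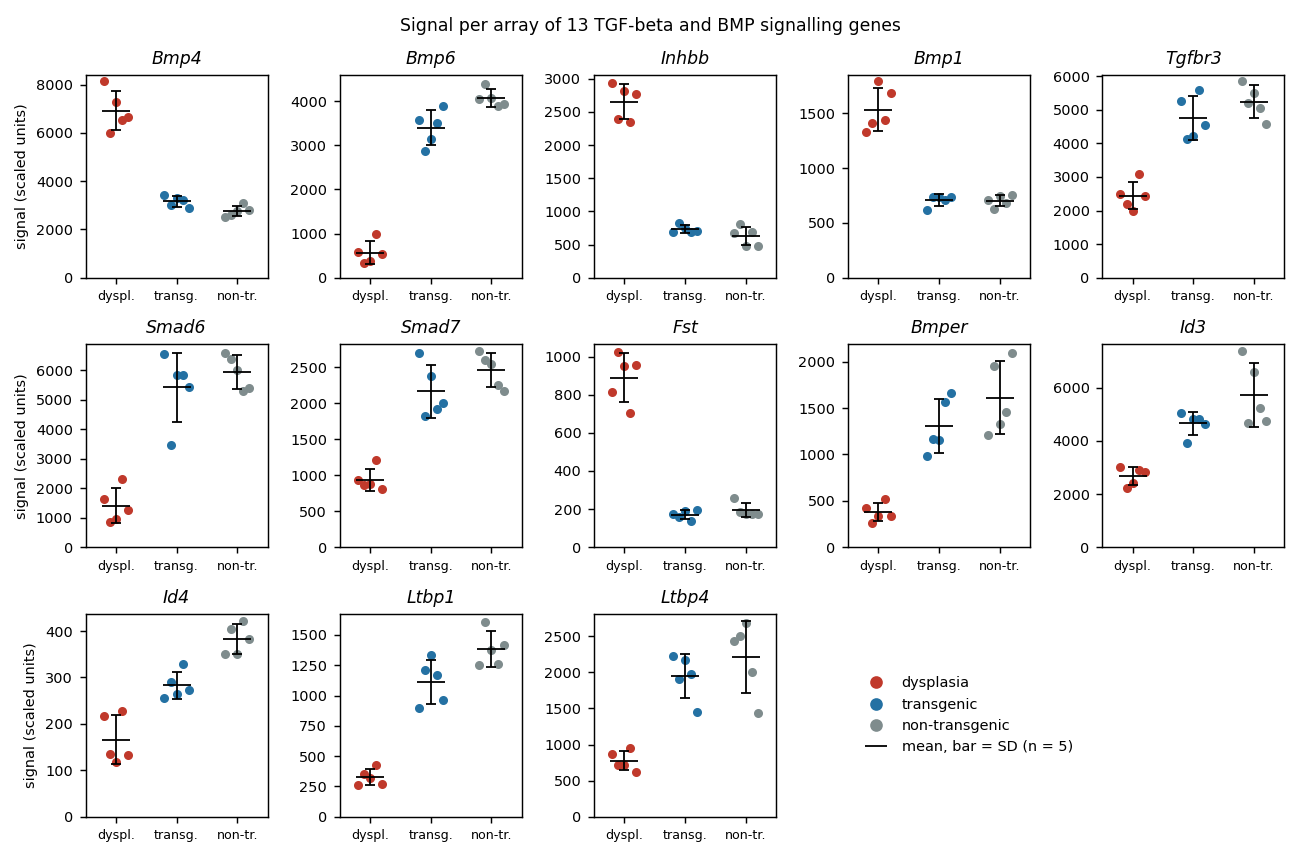
Deposited signal (scaled units, linear axis from 0) of the 13 genes whose log2 change was at least 1 in size, with a call and without overlap, in a dysplasia comparison. Each point is 1 array, in dysplasia (red), transgenic (blue) and non-transgenic tissue (grey), and the bars give mean and SD of 5 arrays; Bmp4, Inhbb, Bmp1 and Fst are high in dysplasia and the other 9 are low.

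Dysplasia 4 often lay nearest to the other groups. Of these 13 genes 9 were lower in dysplasia than in transgenic tissue, and at 8 of the 9 dysplasia 4 had the highest signal of the 5 dysplasia arrays, Id3 being the exception. Without dysplasia 4 and transgenic 2 the log2 change from transgenic tissue was -2.84 for Bmp6, -2.32 for Smad6 and -1.81 for Bmper. All 13 genes kept their direction in both dysplasia comparisons without these 2 arrays.

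Between transgenic and non-transgenic tissue none of the 39 genes passed the test (limma), where 1.26% of all probe sets were called, 1.17% as higher and 0.0831% as lower, and 0.296% with a log2 change of at least 1 and no overlap. At an unadjusted p under 0.05 there were 6 genes, against 12.1% of all probe sets: Bmp4 and Tgfbr1 with a higher mean, and Bmp6, Bambi, Id4 and Ltbp1 with a lower mean in transgenic tissue. The median log2 change of the 39 genes was -0.14, against -0.02 over all probe sets. Groups did not overlap at 3 genes, against 4.30% of all probe sets. These were Id4 (log2 change -0.38, adjusted p = 0.0779), Bmp6 (-0.26, adjusted p = 0.257) and Tgfbr1 (0.25, adjusted p = 0.23). Id4 passed with the array number as a block (adjusted p = 0.0488) and when all its probe sets were averaged (adjusted p = 0.0404). The 2 groups of mice differ in age, and Xist and Y-linked transcripts showed males behind 4 of the 5 transgenic and 1 of the 5 non-transgenic arrays. Age and sex also differ between dysplasia and non-transgenic tissue. By the same transcripts dysplasia 1, 2 and 5 read as male and dysplasia 3 as female, and dysplasia 4 carried both kinds.

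**Figure D3:**
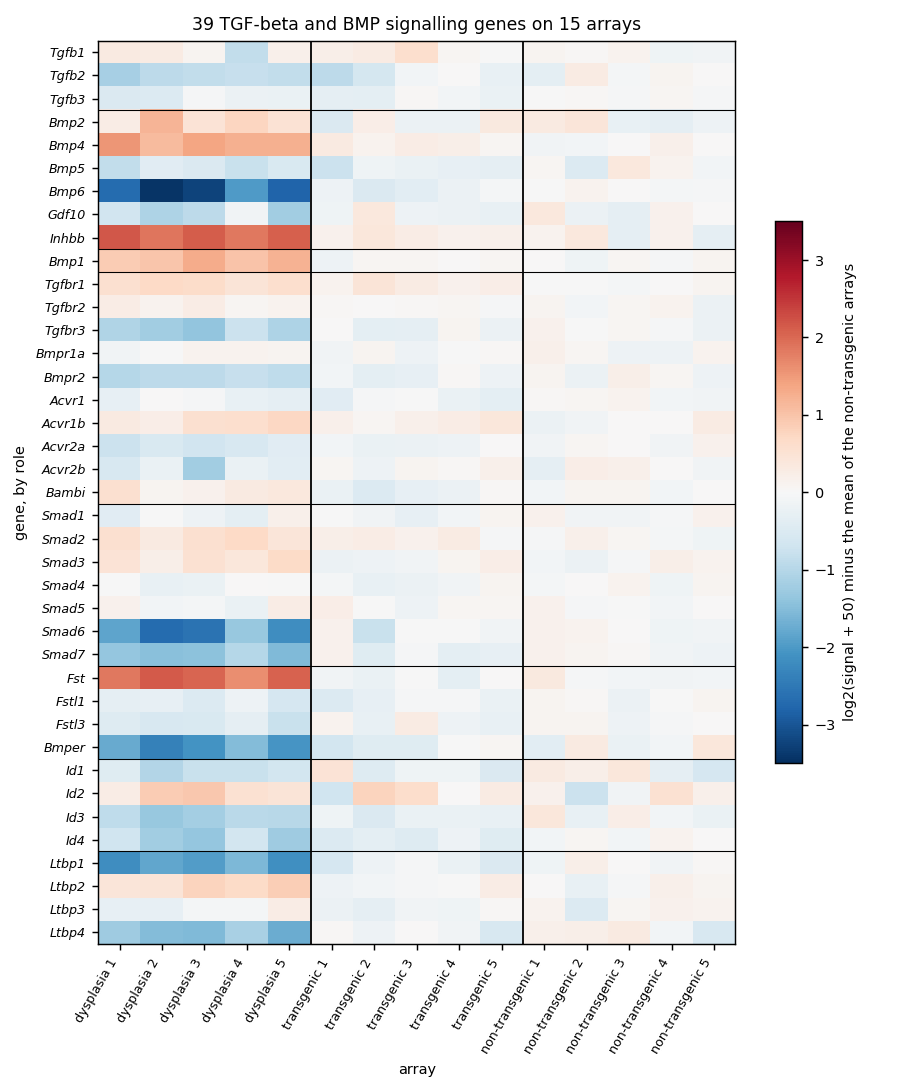
Level of the 39 tested genes on each array, as log2(signal + 50) minus the mean of the 5 non-transgenic arrays of that gene, red above and blue below it. Columns are the 5 dysplasia, 5 transgenic and 5 non-transgenic arrays and rows the genes by role; the dysplasia columns hold the strong colours, as for Bmp6, Smad6, Inhbb and Fst, and the transgenic columns are pale.

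The rest of the pathway was followed through 89 further genes, of which 48 had a tested probe set. Of these 48, 7 were higher and 18 lower in dysplasia than in transgenic tissue, or 52.1% called against 33.2% of all probe sets, with a median log2 change of -0.30. Compared with non-transgenic tissue 6 were higher and 25 lower, or 64.6% against 44.0%, with a median of -0.39. Between transgenic and non-transgenic tissue limma called none of the 48, where it called 1.26% of all probe sets, and 1 gene had an unadjusted p under 0.05, against 12.1% of all probe sets. Of the 7 other receptors and co-receptors 5 fell relative to transgenic and 7 relative to non-transgenic tissue, and none rose. Acvrl1, the type I receptor ALK1 of endothelial cells, was 4.18-fold and 4.94-fold lower in dysplasia than in transgenic and non-transgenic tissue (log2 change -2.09 and -2.33), and Eng, endoglin, its co-receptor, 2.98-fold and 3.34-fold lower (log2 change -1.55 and -1.73). Of the modulators outside the cell, the chordin-like antagonist Chrdl1 fell most (log2 change -1.72 and -2.03). Crim1, a membrane protein that binds BMPs, fell relative to non-transgenic tissue (log2 change -1.71, standard error 0.62, adjusted p = 0.0455), with overlapping arrays. Of 7 tested genes known as targets 5 fell and none rose in each comparison, led by Hey1, a transcriptional repressor downstream of Notch and of ALK1 (log2 change -1.74 and -2.04), and Tgfb1i1, or Hic-5, a focal adhesion protein induced by TGF-beta, was 2.07-fold lower than in transgenic tissue.

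Of 19 intracellular regulators 5 were higher and 2 lower in dysplasia than in transgenic tissue, or 36.8% called against 33.2% of all probe sets. Relative to non-transgenic tissue 4 were higher and 4 lower, or 42.1% against 44.0%. Both shares were near those of all probe sets. Of 7 activators of latent TGF-beta 2 were higher and 2 lower in each comparison, or 57.1% called. Tgif1, a corepressor of Smad2 and Smad3, was 2.92-fold and 3.83-fold higher in dysplasia than in transgenic and non-transgenic tissue (adjusted p = 0.000183 and 6.24e-06). Pmepa1, a TGF-beta-induced inhibitor of Smad2 and Smad3, was 1.94-fold and 2.01-fold higher, and the ubiquitin ligase gene Smurf1 1.87-fold and 2.05-fold. Nedd4l, another ubiquitin ligase of Smads, was 1.62-fold higher than in non-transgenic tissue. Thbs1, thrombospondin 1, an activator of latent TGF-beta, was 2.04-fold and 2.09-fold higher with overlapping arrays (adjusted p = 0.0233 and 0.0287), and Itgav, the alpha V integrin subunit that releases TGF-beta from its latent complex, was 1.49-fold higher than in transgenic tissue.

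Cell type markers were read on the same arrays. Of 85 tested, 6 were higher and 57 lower in dysplasia than in transgenic tissue. Relative to non-transgenic tissue 6 were higher and 56 lower. Of all probe sets 15.3% were called higher and 17.9% lower in the first comparison, and 20.7% and 23.3% in the second. All 17 endothelial markers were lower in dysplasia in both comparisons, with median log2 changes of -1.60 and -1.82. Their summed signal was 25344 to 37022 on the dysplasia arrays, highest on dysplasia 4, against 70555 to 96935 on the transgenic and 84538 to 104296 on the non-transgenic arrays, and none of them was at 0. Fibroblast markers fell in 7 of 12 and rose in none in both comparisons, with a summed signal of 26108 to 36596 on the dysplasia arrays, against 51245 to 60996 on the transgenic and 58001 to 62828 on the non-transgenic arrays. Of 8 tested smooth muscle and pericyte markers 6 fell relative to transgenic and 8 relative to non-transgenic tissue, and the 4 tested mesothelial markers fell in both. Alveolar type 1 markers gave 6 falls and 1 rise of 9 in each comparison. Of 7 alveolar type 2 markers, those of the cell type in which the transgene is driven, none passed relative to transgenic tissue. Relative to non-transgenic tissue 2 rose, or 28.6%, where 20.7% of all probe sets were higher. Among airway cells, club cell markers rose in 4 of 5 relative to transgenic tissue. Relative to non-transgenic tissue 1 of 5 rose, or 20%, where 20.7% of all probe sets were higher. The summed signal of the club cell markers was 45105 to 77836 on the dysplasia arrays and 33692 to 40088 on the transgenic arrays. On the non-transgenic arrays it was 32138 to 55646, which overlaps the dysplasia range. Pifo, the 1 ciliated cell marker of 5 above the signal limit, rose by 2.70 and 2.82 on the log2 scale. Macrophage markers fell in 6 of 7 relative to transgenic tissue, while 1 rose and 2 fell relative to non-transgenic tissue. The latter is 42.9% called, near the 44.0% of all probe sets. All tested markers of B cells (4), NK cells (2), neutrophils (3) and red blood cells (2) fell in both comparisons. Of 4 tested T cell markers, 0 were called relative to transgenic tissue (median log2 change -0.13). Relative to non-transgenic tissue 1 of the 4 fell and 0 rose. The part of these cell types in the changes of the TGF-beta and BMP genes, falls and rises alike, was not tested.

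**Figure D4:**
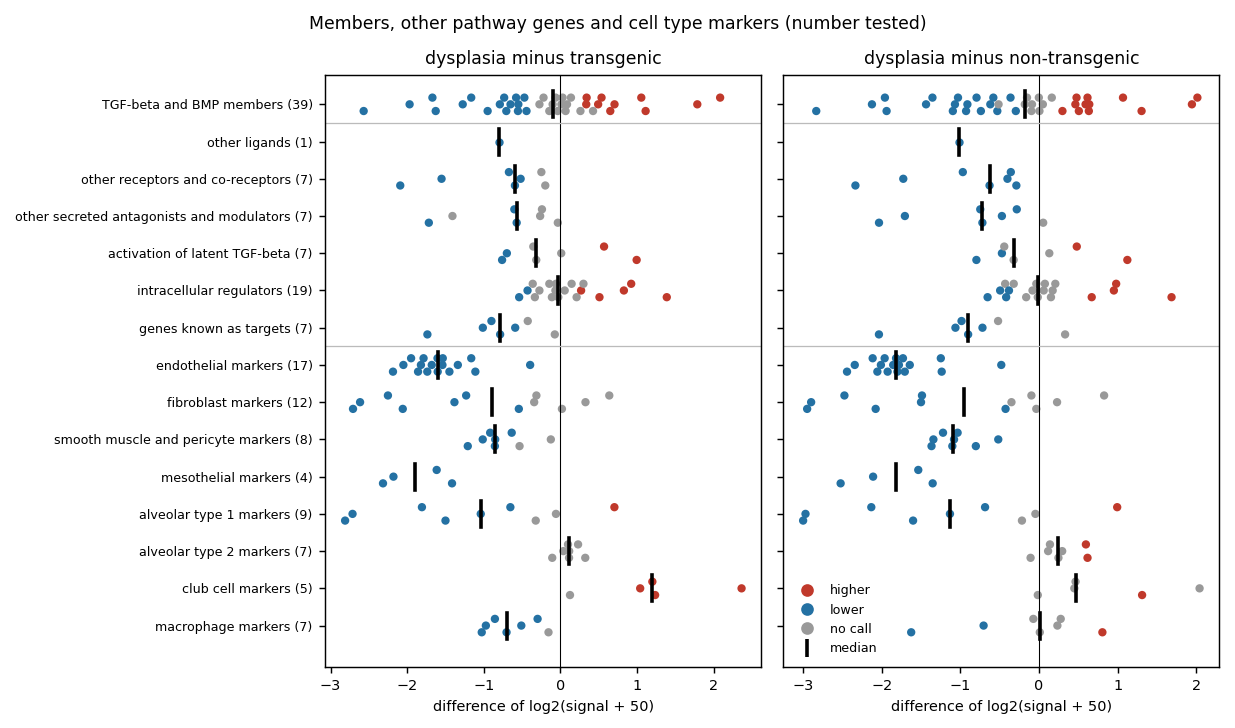
Difference of log2(signal + 50) in dysplasia minus transgenic (left) and dysplasia minus non-transgenic tissue (right) for the 39 TGF-beta and BMP genes (top row), 6 groups of other pathway genes and 8 groups of cell type markers; dots are genes, with called rises in red, called falls in blue and the rest in grey, a black bar marks the median, and the number tested stands in parentheses. The 39 genes spread to both sides of 0, while the 17 endothelial markers all lie below it.

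The genes whose levels ran most like those of the 3 members with the largest differences from transgenic tissue were found by the correlation of log2(signal + 50) over the 15 arrays. The 3 groups of arrays set most of each value, so it is given as a description. Bmp6 ran most like Myh10, Tek and Vtn (r = 0.997 for each), of which Tek is the endothelial angiopoietin receptor. Smad6 ran most like Crebl2, Icam2 and Ramp2 (r = 0.991, 0.991 and 0.990), and Icam2 and Ramp2 are on the endothelial marker list. Fst ran most like Ccdc83, Etv4 and Pcsk6 (r = 0.989, 0.981 and 0.981), of which Etv4 is an ETS transcription factor.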

How the data were processed

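Lung tissue of 15 samples, 5 per group, had been microdissected, and its RNA hybridised to Affymetrix Mouse Genome 430 2.0 arrays. The deposited values are signal intensities of probe sets, which the authors made in GCOS with each array scaled to a target of 500. They are linear, with a version of GCOS not given in the sources used here. Scanner files were not used here. Precision is limited by the number of arrays.

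Of 45101 probe sets 64 controls were left out, and 34945 of the other 45037 carried 1 gene symbol, 932 several and 9160 none. Symbols came from the platform annotation, updated through a RefSeq gene table. The 21658 probe sets with a mean signal above 100 were tested as log2(signal + 50) with limma 3.58.1 in R 4.3.3, unpaired, 2 groups per fit and with Benjamini-Hochberg adjustment over all of them. limma stands in place of the SAM software of the study, which was not run. A call is an adjusted p under 0.05. The fit was tested on simulated data with known changes. Tables were made with pandas 2.3.3 and scipy 1.17.1.

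The member genes, the other pathway lists and the markers were chosen with earlier results of these data known. Array values are given in full for members with a call, a log2 change of at least 1 in size and no overlap in a dysplasia comparison, and from the other pathway genes the 5 largest rises and the 5 largest falls with a call per comparison are named. Further probe sets of a member were named after their values were seen. Deviations from the group means of same-numbered arrays were correlated over all tested probe sets to ask whether numbers pair the arrays: r was 0.219 to 0.773 for dysplasia and transgenic and at least 0.135 for transgenic and non-transgenic arrays (4 of 10 of which ran best with their own number), so that the block is given beside these results where it changes a call. Other settings were the offset, scaling, signal limit, probe set of a gene, variance trend, all groups in one fit, Xist or the actin ratio as a covariate, and arrays left out.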

Additional observations from a re-analysis of the deposited data

Results flagged for a closer look

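In 6 of 117 groups of 5 arrays, 1 array of a tested gene lay apart from the others by more than the 95% critical value of Dixon's test, a gap that chance gives in about 1 of 20 groups. Tgfb1 was lowest on dysplasia 4, at 494 against 995 to 1179 on the other dysplasia arrays, a gap of 0.801 of the range of the group. Gdf10 was highest on transgenic 2, at 294 against 173 to 194, a gap of 0.793. On transgenic 1, Bmp5 was lowest at 1307 against 1804 to 2013, a gap of 0.746, and Bmp1 was lowest at 619 against 712 to 738, a gap of 0.793. Fst was highest on non-transgenic 1, at 259 against 174 to 186, a gap of 0.838. Ltbp3 was lowest on non-transgenic 2, at 3989 against 5789.5 to 6111, a gap of 0.873.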

How the results depend on the processing

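Each of the 39 genes was refitted under 24 other settings per comparison, without any change of direction among called genes. Of 935 values relative to transgenic tissue 30 lost a call (6 genes) and 7 gained one (3 genes), and relative to non-transgenic tissue 48 of 935 lost one (5 genes) and 8 gained one (1 gene). Leaving out 1 array at a time gave 9 to 11 higher and 13 to 16 lower genes relative to transgenic tissue, 9 to 11 higher and 17 to 19 lower relative to non-transgenic tissue, and 0 between transgenic and non-transgenic tissue. Over all 21658 probe sets 2793 to 3259 were then higher and 3292 to 4002 lower relative to transgenic tissue. Relative to non-transgenic tissue 3944 to 4456 probe sets were higher and 4418 to 5076 lower. With the replicate block, or with all probe sets of a gene averaged, 1 gene, Id4, was lower in transgenic than in non-transgenic tissue. The block gave 12 higher and 17 lower genes relative to transgenic tissue by calling Acvr1b, Id2 and Bmp5 in addition, and changed no other call there. The array numbers do not pair dysplasia with non-transgenic arrays by the rule that every r exceeds 0.1 (r was -0.00366 for number 4 and 0.261 to 0.727 for the others, and 5 of 10 arrays ran best with their own number), and the block there lost Id2 and Bambi and gained Acvr2b (adjusted p = 0.0635, 0.0601 and 0.0431). Over all probe sets the block called 5072 higher and 5589 lower in dysplasia than in transgenic tissue, against 3321 and 3871 without it. Between transgenic and non-transgenic tissue 254 probe sets were higher and 18 lower, with 106 and 4 after Xist, 434 and 72 after the actin ratio as covariates, 276 and 53 with the block, 265 and 33 with probe sets averaged, and 112 to 266 and 4 to 25 with 1 array left out. Averaging probe sets ended the calls of Acvr2b and Smad2 relative to transgenic tissue (adjusted p = 0.258 and 0.117) and called Id2 (adjusted p = 0.00337). Without array number 5 of each group, Tgfb2, Gdf10, Tgfbr1, Acvr2b and Smad2 lost that call (adjusted p = 0.0939, 0.0549, 0.0549, 0.0865 and 0.0651), and Tgfb3, Bmp2, Bambi, Fstl1 and Id2 theirs relative to non-transgenic tissue (adjusted p = 0.074, 0.0694, 0.107, 0.0637 and 0.0679). With Xist as a covariate Tgfb3, Bmp2, Bambi and Id2 lost theirs relative to non-transgenic tissue (adjusted p = 0.145, 0.0775, 0.0893 and 0.0734). The cause of these changes was not tested. Gdf10, with a mean signal of 179.6, was close to the limit of 100, and the 6 genes below it were fitted only without a limit.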
